A study of Danio rerio with 6 samples.

Results

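Transcripts of 52 genes of the Fanconi anemia pathway and of DNA break repair were compared between sorted foxl2l-/- and foxl2l+/+ germ cells of juvenile zebrafish. The genes were taken by name, from the 31743 genes of the deposited table, with a fixed pattern. It takes the Fanconi complementation group genes, brca2 and its partners, the strand exchange genes, and the break-sensing and checkpoint genes. It further takes the XRCC genes, the polymerase genes parp1 and parp2, the ubiquitin ligase gene rad18, and the nuclease and helicase genes that work with all of these. The members were chosen with earlier results of these data known. The pattern also took rad54l2 and rbbp8l, which resemble repair genes in name, and slx4_2, which overlaps slx4_1 on the same strand. It passed over the mediator gene listed in capitals as XRCC2, whose values are given apart. Of the 52 genes, 51 had enough counts to be tested, and slx4_2 had 0 counts in all 6 libraries.

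All animals were of the TL strain, aged 21 days post fertilization, and carried the foxl2l:egfp reporter. Trunks with gonads were dissociated, and about 300 EGFP-positive germ cells were collected by fluorescence-activated sorting. There were 3 libraries of genotype foxl2l:egfp;foxl2l-/- and 3 of foxl2l:egfp;foxl2l+/+. The series asks how Foxl2l, a forkhead transcription factor of germ cells, acts on entry into female meiosis. The sort takes cells by the activity of the foxl2l reporter, so the libraries were meant to hold only cells that expressed it. Markers of other cell types were also found, as given below. The labels do not say how many fish gave each library. No label says that the libraries came from separate animals, so the p-values cover library-to-library spread alone, possibly technical.

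Fanconi anemia proteins act where a covalent crosslink between DNA strands blocks a replication fork. A core complex with the ubiquitin ligase FANCL marks the FANCD2-FANCI heterodimer, nucleases then cut the crosslink out, and BRCA2, PALB2 and the strand exchange proteins rejoin the broken chromosome by copying an intact sister or homolog. The same strand exchange machinery serves the programmed breaks of meiosis. In zebrafish, loss of fancl or brca2 has been reported to turn would-be females into males, with loss of oocytes.

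The libraries held 25176401 to 39189535 counts. Members had from 38 to 32189 counts in a library, rbbp8l being the lowest and parp1 the highest. Replicate 3 of foxl2l-/- stood apart from its group, with Pearson correlations of log2(CPM + 1) of 0.965 and 0.973 with the other foxl2l-/- libraries, which correlated at 0.983 with each other. It gave the highest foxl2l-/- level for 30 of the 51 tested members, against 37.4% of all tested genes. The gene foxl2l itself, listed as zgc:194189, had 17630 to 22491 counts in foxl2l+/+ and 31437 to 47231 in foxl2l-/- libraries. In normalised counts it had 504 to 743 CPM in foxl2l+/+ and 806 to 1180 CPM in foxl2l-/- libraries. Its log2 fold change came to 0.64 ± 0.20 (SE) (adjusted p = 0.0263 in edgeR). The labels do not say which part of foxl2l the mutation alters, so its reads do not check the genotypes. The sorted cells carried germ cell markers. The 9 germ cell markers found of 10 summed to 4016 to 4692 TPM in foxl2l+/+ and 4114 to 6132 TPM in foxl2l-/- libraries. The 20 markers of somatic gonad cells summed to 36.0 to 41.4 TPM in foxl2l+/+ and 61.2 to 72.8 TPM in foxl2l-/- libraries, 17 blood and immune markers to 152 to 250 and 137 to 186 TPM, and 16 markers of muscle, skin, digestive tissue, liver and pigment cells to 148 to 167 and 163 to 193 TPM. No marker in these lists was at 0 in all 6 libraries. The somatic gonad sums did not overlap between genotypes, but without cyp17a1, a steroid synthesis gene, they came to 25.9 to 34.1 and 30.1 to 42.7 TPM and overlapped. Of the 17 somatic gonad markers tested, 2 were higher and 2 lower, with a median log2 fold change of -0.14. The other lists also held called genes, with 2 higher and 4 lower of 16 blood and immune markers tested. Of the 16 muscle to pigment cell markers 3 were higher and 2 lower, and of the 9 germ cell markers 1 and 2. Over all tested genes, 31.6% were called. The blood and immune sum of 250 TPM, in foxl2l+/+ replicate 1, included 128 TPM of hbaa1. The part of other cell types in the results below was not tested, and in sorted pools fewer cells of a type and less RNA per cell cannot be told apart.

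Repair transcripts moved in both directions. Of the 51 tested members, 5 were higher in foxl2l-/- cells (tp53bp1, mre11a, rad18, chek2 and xrcc6), 10 were lower (parp2, rad1, rad54l2, blm, rad52, xrcc1, fanci, fance, mus81 and fancf), and 36 did not pass. A gene was called at an adjusted p below 0.05 by the quasi-likelihood test of edgeR, adjusted by Benjamini-Hochberg over all 23576 tested genes. Fold changes set foxl2l-/- over foxl2l+/+ on the log2 scale. The test called 31.6% of all tested genes, 15.7% higher and 15.8% lower, and 29.4% of the members, 9.8% higher and 19.6% lower. The share of members called was thus close to the background. The members' median log2 fold change came to -0.19 and that of all tested genes 0.05, and the median size of the change, without its sign, was 0.52 for members and 0.68 for all tested genes. Levels of foxl2l-/- and foxl2l+/+ libraries did not overlap for 24 members (47.1%), 9 higher and 15 lower, beside 46.7% of all tested genes, 23.9% higher and 22.8% lower.

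The split between directions differed between settings. With RLE factors it stayed at 5 higher and 10 lower. When library totals replaced TMM factors, 10 members were higher and 9 lower, their median being 0.01, while the median of all genes moved from 0.05 to 0.25. Calls over all tested genes then numbered 4882 higher and 2723 lower, against 3710 and 3733 with TMM factors. On the deposited TPM values, with limma-trend on log2(TPM + 1), 10 members were higher and 7 lower, beside 5326 and 2652 of all tested genes. Without foxl2l-/- replicate 3, 6 members were higher and 14 lower, their median being -0.36. Of the 24230 genes tested without that library, 3302 were higher and 3753 lower. Each of the 15 called members kept its direction under all 14 alternatives, and 12 kept the call. The exceptions were fancf, mus81 and xrcc1, described with their genes. How often called genes outside the members kept direction and call was not counted over the whole table.

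**Figure D1:**
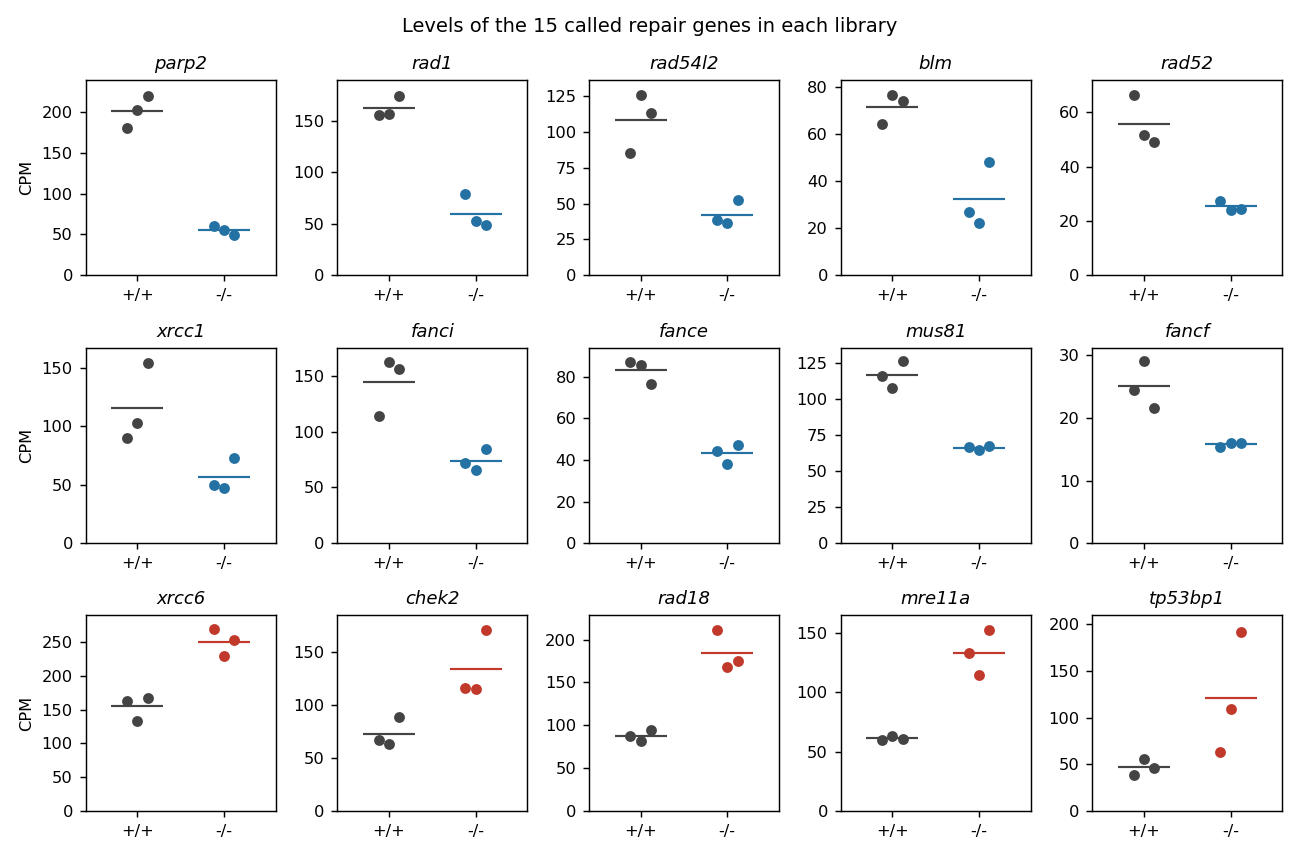
Levels of the 15 called repair genes in normalised counts (CPM, linear axes from 0) in the 3 foxl2l+/+ and 3 foxl2l-/- libraries. Points are libraries in the order of replicates 1 to 3, bars are group means, blue marks genes that were lower and red genes that were higher in foxl2l-/- cells. In none of the 15 panels do the genotypes overlap.

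Levels differed widely among members. On the length-scaled TPM scale, the mean over the 6 libraries ran from 1.26 TPM for rbbp8l to 243 TPM for parp1, with a median of 29.2 TPM for the members and 5.21 TPM for all tested genes. There were 16 members at 50 TPM or more, 25 from 10 to below 50 TPM, and 10 tested members below 10 TPM. Other abundant members were the Ku subunit gene xrcc6 (161 TPM) and the checkpoint kinase gene chek1 (132 TPM). Genes of some large repair proteins were scarcer, with brca2 at 9.76 TPM, brip1 at 6.58 TPM, atm at 4.51 TPM and slx4_1 at 3.69 TPM. Within a genotype, the median coefficient of variation of CPM over members was 17.1% in foxl2l+/+ and 15.6% in foxl2l-/- libraries, and over all tested genes 25.1% and 25.5%.

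**Figure D2:**
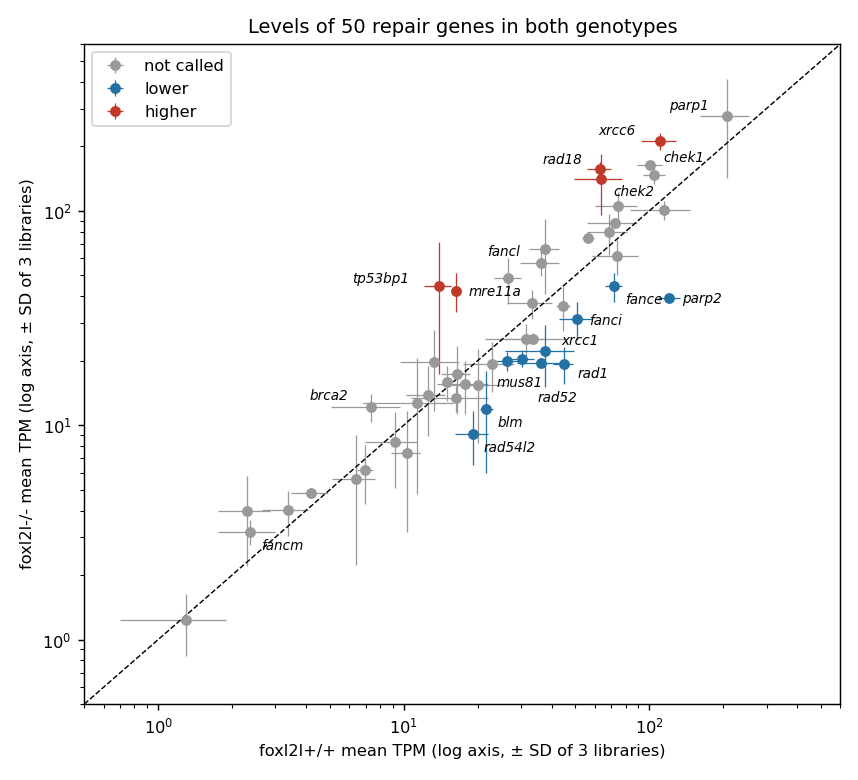
Mean TPM of 50 of the 51 tested repair genes in foxl2l+/+ (x) and foxl2l-/- (y) libraries, on log axes, with SD over 3 libraries as bars and the line of equal levels dashed. Red and blue mark genes called higher and lower. Parp2 lies far below the line at a high level, whereas parp1 lies near it.

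In the Fanconi core complex, fance and fancf were lower in foxl2l-/- cells, and the other 5 members tested did not pass. Fance (ENSDARG00000068870, chromosome 8, 23731483 to 23737370, forward strand, GRCz11) encodes the subunit that joins the core complex to FANCD2. Its levels were 87.2, 85.8 and 76.6 CPM in foxl2l+/+ replicates 1 to 3 and 44.5, 38.0 and 47.0 CPM in foxl2l-/- replicates 1 to 3. All foxl2l-/- libraries lay well below the foxl2l+/+ libraries, and the log2 fold change came to -0.95 ± 0.18 (SE) (adjusted p = 0.00223). Fancf, on chromosome 25 (ENSDARG00000019250, 35294670 to 35296165, reverse strand), encodes an adaptor of the core complex. It stood at 24.5, 29.1 and 21.7 CPM in foxl2l+/+ against 15.4, 16.1 and 16.0 CPM in foxl2l-/- cells. The genotypes did not overlap, but the log2 fold change of -0.67 ± 0.24 lay at the edge of the threshold (adjusted p = 0.0478 in edgeR). That call was lost under 11 of 14 alternatives, among them the omission of any library, with adjusted p from 0.0159 to 0.158 over all 14.

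Fancl, the ubiquitin ligase gene of the complex, did not pass. It had 48.8, 39.4 and 51.3 CPM in foxl2l+/+ against 67.3, 53.3 and 64.1 CPM in foxl2l-/- cells. Its foxl2l-/- libraries all lay above the foxl2l+/+ libraries, with a log2 fold change of 0.41 ± 0.20 (adjusted p = 0.140). Under library totals the value was 0.60 (adjusted p = 0.0340, and 0.0284 to 0.382 over the alternatives). Fancg (0.25), fancm (0.19), fancb (-0.47) and fancc (-0.53) likewise did not pass, and fancm, the translocase that recruits the complex to DNA, was near the low end of the members at 2.78 TPM.

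Of the genes for the heterodimer that the core complex ubiquitinates, fanci was lower and fancd2 was not called. Fanci (ENSDARG00000026224, chromosome 25, 8447565 to 8479171, forward strand) had 114, 162 and 156 CPM in foxl2l+/+ against 71.5, 65.4 and 84.6 CPM in foxl2l-/- cells. It was lower in every foxl2l-/- library, with a log2 fold change of -0.97 ± 0.20 (adjusted p = 0.00282). Fancd2 had 30.1, 41.3 and 52.2 CPM in foxl2l+/+ against 35.2, 48.1 and 68.8 CPM in foxl2l-/- cells, which overlapped, with a log2 fold change of 0.30 ± 0.27 (adjusted p = 0.440).

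Among the genes that act after the heterodimer, mus81 was lower. Mus81 (ENSDARG00000069326, chromosome 7, 19850889 to 19883099, forward strand) encodes the catalytic subunit of an endonuclease that cuts branched DNA. Its values were 116, 107 and 126 CPM in foxl2l+/+ against 66.5, 64.7 and 67.6 CPM in foxl2l-/- cells. The foxl2l-/- values lay close together and below all others, with a log2 fold change of -0.81 ± 0.17 (adjusted p = 0.00327). On TPM values it was -0.54 (adjusted p = 0.0551 in limma-trend), which did not pass, and the alternatives gave adjusted p from 0.000175 to 0.0569. The helicase gene brip1 (-0.45), slx4ip (-0.42) and the nuclease scaffold gene slx4_1 (-0.02) did not pass, although brip1 did without foxl2l-/- replicate 3 (-0.63). Slx4_1 shares its locus with 2 genes on the opposite strand that were well expressed, so its small value is uncertain.

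Strand exchange genes showed a single call among 12 (8.33%, beside 31.6% of all tested genes), a difference that was not tested. Several others passed under some alternative, as given below. Rad52 (ENSDARG00000005274, chromosome 25, 21098675 to 21115213, forward strand), which encodes a single-strand annealing protein, had 66.4, 51.6 and 49.1 CPM in foxl2l+/+ against 27.4, 24.2 and 24.5 CPM in foxl2l-/- cells. The foxl2l-/- libraries were tightly grouped below the foxl2l+/+ ones, at a log2 fold change of -1.14 ± 0.21 (adjusted p = 0.00149). The gene overlaps wnk1a on the opposite strand by 543 bases, and wnk1a fell by 1.23 on the log2 scale. The libraries do not record the strand, so reads from the shared bases cannot be told apart.

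Brca2, which encodes a mediator of strand exchange, had 29.8, 42.5 and 56.1 CPM in foxl2l+/+ against 55.1, 58.4 and 62.9 CPM in foxl2l-/- cells. The highest foxl2l+/+ library lay inside the foxl2l-/- range, with a log2 fold change of 0.46 ± 0.23 (adjusted p = 0.158). Under library totals it was 0.66 (adjusted p = 0.0481, and up to 0.462 over the alternatives). Its partner palb2 (0.53) and the BRCA1-associated gene bard1 (0.52) did not pass either. Palb2 did pass as higher under library totals (0.73, adjusted p = 0.0327 in edgeR). It also passed on both TPM settings with limma-trend (adjusted p = 0.0430 and 0.0461), with adjusted p up to 0.394 over the alternatives.

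Other strand exchange members ran from -0.65 to 0.15 on the log2 scale without passing. The negative ones were the translocase genes rad54b (-0.65) and rad54l (-0.52), the mediator genes rad51b (-0.64) and xrcc3 (-0.56), and rad51ap1 (-0.55), which encodes an accessory protein of strand exchange. The mediator genes rad51c and rad51d were at 0.03 and 0.15. Rad54b overlaps fsbp on the same strand by 4784 bases, and rad51c overlaps atg101 on the opposite strand by 874 bases. Both neighbours were called, fsbp lower (-1.36) and atg101 higher (0.87). XRCC2, the mediator gene outside the name pattern, had 14.5 ± 1.76 CPM in foxl2l+/+ against 18.2 ± 3.27 CPM in foxl2l-/- cells (SD, n = 3) and did not pass (0.33 ± 0.26, adjusted p = 0.372 in edgeR). Some of these passed as lower in edgeR once a library was left out. Without foxl2l-/- replicate 3, rad54b was at -1.01 (adjusted p = 0.0111, and up to 0.378 over the alternatives) and rad54l at -0.61 (adjusted p = 0.0347, and up to 0.382). Rad54l also passed without foxl2l+/+ replicate 2 (-0.66), rad51b without foxl2l+/+ replicate 1 (-0.80) and rad51ap1 without foxl2l-/- replicate 1 (-0.83). With all libraries, rad51b (-0.66, adjusted p = 0.0407) and xrcc3 (-0.58, adjusted p = 0.0395) passed as lower in DESeq2. With the replicate block, rad54l did so in edgeR (-0.51, adjusted p = 0.0424).

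**Figure D3:**
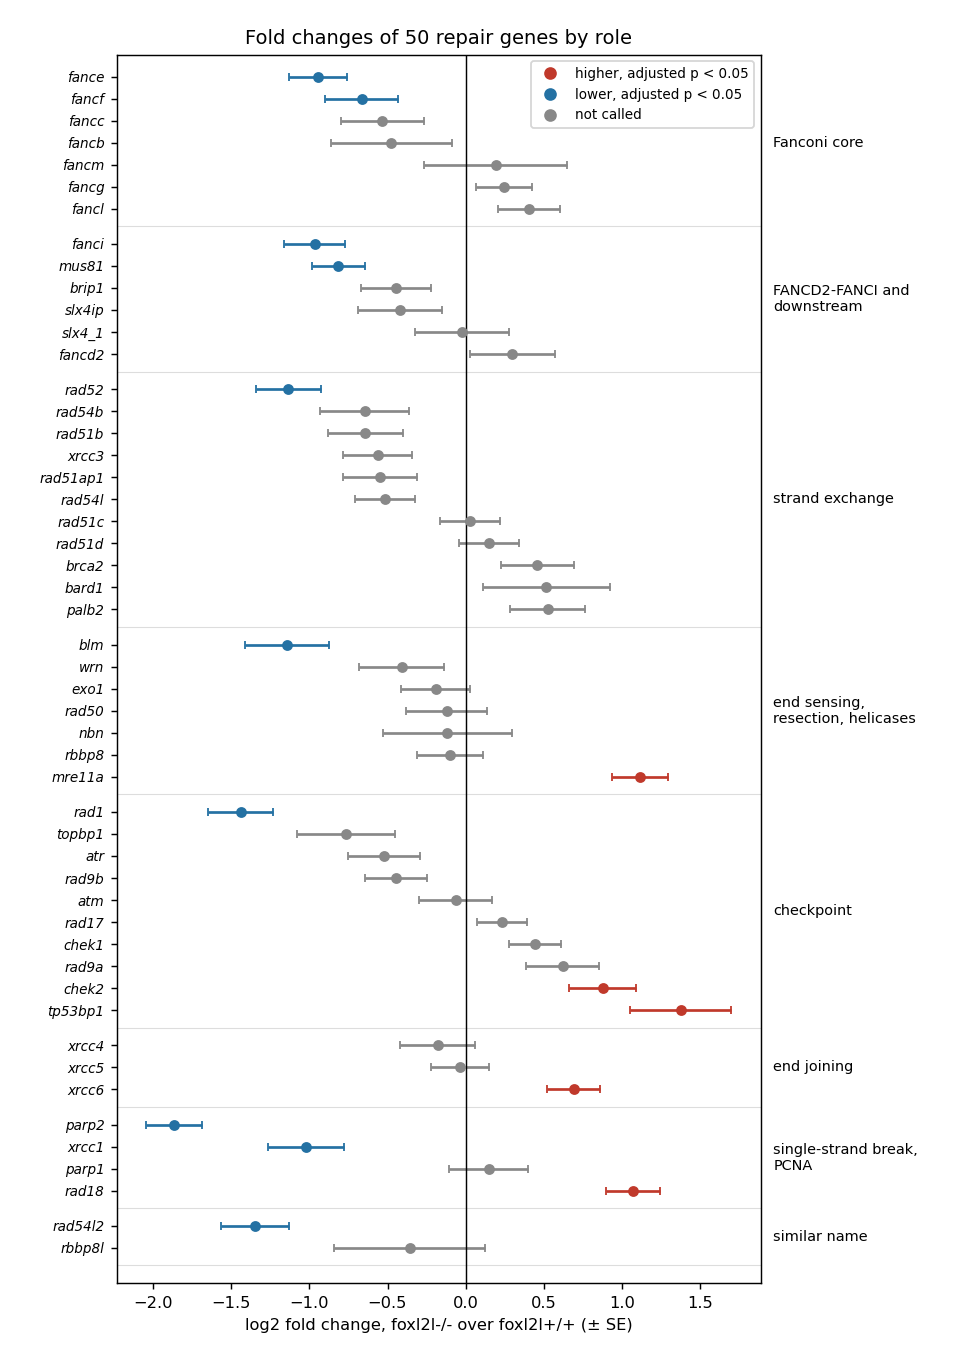
Log2 fold change of foxl2l-/- over foxl2l+/+ with its SE for 50 of the 51 tested repair genes, grouped by role and ordered within each role. Red marks genes called higher, blue genes called lower at an adjusted p below 0.05, and grey genes not called. The strand exchange group holds a single called gene, rad52, and the checkpoint group runs from -1.44 for rad1 to 1.38 for tp53bp1. Of all tested genes, 31.6% were called.

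Of the 3 genes of the break-sensing MRN complex, mre11a was higher, while rad50 and nbn were not called. Mre11a, the gene of its nuclease (ENSDARG00000105014, chromosome 15, 2856696 to 2890101, forward strand), had 60.1, 63.2 and 60.4 CPM in foxl2l+/+ against 133, 114 and 152 CPM in foxl2l-/- cells. All foxl2l-/- libraries were far above the foxl2l+/+ libraries, with a log2 fold change of 1.12 ± 0.18 (adjusted p = 0.000609). Rad50 (-0.12 ± 0.26, adjusted p = 0.765) and nbn (-0.12 ± 0.42, adjusted p = 0.861) did not pass. Nbn varied from 10.1 CPM in foxl2l-/- replicate 1 to 39.6 CPM in foxl2l-/- replicate 3, and its locus contains other expressed genes, among them apoeb, so its level is uncertain.

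Blm, which encodes a RecQ helicase that takes apart recombination intermediates, was lower (ENSDARG00000077089, chromosome 18, 26428829 to 26453729, forward strand). It had 64.2, 76.2 and 73.9 CPM in foxl2l+/+ against 27.0, 22.0 and 47.8 CPM in foxl2l-/- cells. Replicate 3 was the highest of the foxl2l-/- libraries and still below all foxl2l+/+ libraries. The log2 fold change came to -1.15 ± 0.27 (adjusted p = 0.00672), and -1.54 without that library (adjusted p = 0.000338 in edgeR, up to 0.0440 over the alternatives). The related helicase gene wrn (-0.41) and the resection genes exo1 (-0.19) and rbbp8 (-0.10) did not pass.

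Checkpoint genes ran from a log2 fold change of -1.44 for rad1 to 1.38 for tp53bp1. Tp53bp1 (ENSDARG00000079000, chromosome 7, 52887701 to 52933169, forward strand) encodes a chromatin-bound protein that shields broken ends from resection. Its values were 38.96, 55.3 and 45.7 CPM in foxl2l+/+ against 62.8, 109 and 192 CPM in foxl2l-/- cells. The genotypes did not overlap, although the foxl2l-/- libraries were spread widely, and the log2 fold change came to 1.38 ± 0.32 (adjusted p = 0.00683). Without replicate 3 of foxl2l-/-, the highest, it was 0.88 (adjusted p = 0.0197 in edgeR, and 0.000318 to 0.0411 over the alternatives).

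Chek2, the gene of a checkpoint kinase activated by ATM at breaks (ENSDARG00000025820, chromosome 5, 10055980 to 10082244, reverse strand), was also higher. It had 66.4, 62.8 and 88.3 CPM in foxl2l+/+ against 115, 115 and 170 CPM in foxl2l-/- cells, with no overlap. The log2 fold change came to 0.88 ± 0.21 (adjusted p = 0.00825). A stretch of 362 bases overlaps gstt2 on the opposite strand, which rose by 1.21 on the log2 scale. In all, 8 called members overlap a gene of at least 1 CPM, and besides wnk1a and gstt2 no such neighbour was called. Chek1, the gene of the kinase activated by ATR, had 117, 103 and 116 CPM in foxl2l+/+ against 168, 151 and 137 CPM in foxl2l-/- cells. These did not overlap either, but the log2 fold change of 0.44 ± 0.17 did not pass (adjusted p = 0.0621). It passed under library totals (0.64, adjusted p = 0.0113) on TPM values with limma-trend (0.69, adjusted p = 0.00588) and, at 0.52, with foxl2l-/- replicate 3 left out (adjusted p = 0.0307). The alternatives gave adjusted p from 0.00588 to 0.194.

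In the sensor clamp formed by RAD9, RAD1 and HUS1, rad1 was lower, and rad9a and rad9b were not called. Rad1 (ENSDARG00000040559, chromosome 15, 23776417 to 23784600, reverse strand) had 156, 156 and 174 CPM in foxl2l+/+ against 78.4, 52.3 and 48.5 CPM in foxl2l-/- cells. Every foxl2l-/- library was far below, with a log2 fold change of -1.44 ± 0.21 (adjusted p = 0.000330). Rad9a had 34.1, 29.1 and 31.7 CPM in foxl2l+/+ against 62.5, 35.0 and 48.6 CPM in foxl2l-/- cells. These did not overlap, but its log2 fold change of 0.62 ± 0.23 did not pass (adjusted p = 0.0607). It was at 0.84 without foxl2l-/- replicate 2, the lowest of its group, and passed (adjusted p = 0.0302 in edgeR). With all libraries, rad9a passed under library totals (0.82, adjusted p = 0.0171 in edgeR). It also passed on both TPM settings with limma-trend (adjusted p = 0.0175 and 0.0193), with adjusted p up to 0.250 over the alternatives. Its paralog rad9b was the more abundant, at 115 ± 31.6 TPM against 26.6 ± 3.35 TPM for rad9a in foxl2l+/+ libraries (SD, n = 3), and had a log2 fold change of -0.44 ± 0.20 that did not pass either. The clamp loader gene rad17 (0.23), the kinase genes atr (-0.52) and atm (-0.06) and the ATR activator gene topbp1 (-0.76) did not pass. Rad17 passed as higher on both TPM settings with limma-trend (0.48, adjusted p = 0.0340 and 0.0358), with adjusted p up to 0.504 over the alternatives. Topbp1 ranged from 15.2 CPM in foxl2l-/- replicate 1 to 41.8 CPM in replicate 3, and passed without replicate 3 (-1.22, adjusted p = 0.00497 in edgeR, 0.00497 to 0.268 over the alternatives). With all libraries, topbp1 passed in DESeq2 (-0.78, adjusted p = 0.0494) and in edgeR with the replicate block (-0.88, adjusted p = 0.0193). Atr passed without foxl2l+/+ replicate 1 (-0.73) or foxl2l-/- replicate 3 (-0.68).

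In end joining, the gene of the smaller Ku subunit was higher and its partner was not called. Xrcc6, which encodes the Ku70 subunit (ENSDARG00000071551, chromosome 12, 18899396 to 18904360, forward strand), had 163, 134 and 168 CPM in foxl2l+/+ against 269, 229 and 254 CPM in foxl2l-/- cells. The foxl2l-/- libraries all lay above, with a log2 fold change of 0.69 ± 0.17 (adjusted p = 0.00860). Xrcc5, for the Ku80 subunit, was at -0.04 ± 0.19 and xrcc4, a ligase cofactor gene, at -0.18 ± 0.24, neither of which passed. Xrcc4 overlaps the more abundant tmem167a on the opposite strand by 6857 bases. Tmem167a was called lower (-1.21), so the value of xrcc4 is uncertain.

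Genes of single-strand break repair included the member with the smallest p. Parp2 (ENSDARG00000079202, chromosome 2, 37836821 to 37846849, forward strand) encodes a poly(ADP-ribose) polymerase activated by DNA breaks. It had 180, 202 and 220 CPM in foxl2l+/+ against 60.3, 55.7 and 49.0 CPM in foxl2l-/- cells. The foxl2l-/- levels were 3.65-fold lower, with a log2 fold change of -1.87 ± 0.18 (adjusted p = 1.77e-05). Parp1, the gene of the major enzyme of this family, had 446, 448 and 624 CPM in foxl2l+/+ against 426, 429 and 826 CPM in foxl2l-/- cells. The genotypes overlapped, and its log2 fold change of 0.15 ± 0.25 did not pass (adjusted p = 0.701). Without foxl2l-/- replicate 3, the highest, it was -0.24.

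Xrcc1, the scaffold gene of this repair path (ENSDARG00000009494, chromosome 16, 54209504 to 54248267, forward strand), was lower. It had 89.7, 103 and 154 CPM in foxl2l+/+ against 50.02, 47.5 and 73.0 CPM in foxl2l-/- cells, with no overlap, at a log2 fold change of -1.02 ± 0.24 (adjusted p = 0.00708). The call was lost without foxl2l+/+ replicate 3, the highest (-0.74, adjusted p = 0.0559 in edgeR), and on TPM values with limma-trend (-0.73, adjusted p = 0.0615), and the alternatives gave adjusted p from 0.000796 to 0.0651. Rad18, a ubiquitin ligase gene whose product marks PCNA at stalled forks (ENSDARG00000027938, chromosome 6, 41808673 to 41887398, forward strand), was higher. It had 87.5, 81.9 and 94.3 CPM in foxl2l+/+ against 211, 168 and 175 CPM in foxl2l-/- cells. All foxl2l-/- libraries were far above, at a log2 fold change of 1.07 ± 0.17 (adjusted p = 0.000657).

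Rad54l2, also called lower, is not known as a core repair gene. The gene (ENSDARG00000063031, chromosome 22, 10606573 to 10641287, forward strand) encodes a helicase-like protein known in mammals as an androgen receptor partner. It had 85.6, 125 and 113 CPM in foxl2l+/+ against 38.5, 36.1 and 52.5 CPM in foxl2l-/- cells, without overlap, at a log2 fold change of -1.35 ± 0.22 (adjusted p = 0.000632). Rbbp8l, named for similarity to rbbp8, had 2.75 ± 0.79 CPM in foxl2l-/- against 3.51 ± 1.69 CPM in foxl2l+/+ cells (SD, n = 3) and did not pass (-0.36 ± 0.48).

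Ratios of partner transcripts within a library do not depend on how libraries are scaled to each other. For this, 10 ratios, chosen after the fold changes were known, were formed from TPM values, and 9 are given. The ratio of parp1 to parp2 was 1.680, 1.504 and 1.930 in foxl2l+/+ and 4.80, 5.23 and 11.4 in foxl2l-/- libraries. The ratio of rad9a to rad1 was 0.665, 0.567 and 0.554 in foxl2l+/+, where rad1 was the more abundant, and 2.42, 2.04 and 3.05 in foxl2l-/- libraries, where rad9a was. This holds for the less abundant paralog alone. Rad9b, at mean levels of 115 TPM in foxl2l+/+ and 101 TPM in foxl2l-/- libraries, lay above rad1 (44.7 and 19.4 TPM) in both. Xrcc6 stood to xrcc5 as 1.62 ± 0.139 in foxl2l+/+ and 2.71 ± 0.325 in foxl2l-/- cells (SD, n = 3). Fancd2 stood to fanci as 0.260 ± 0.0399 and 0.621 ± 0.153, and mre11a to rad50 as 1.33 ± 0.233 and 3.32 ± 1.23. The groups did not overlap in any of these, nor for rad9a to rad9b and mre11a to nbn, and each gave p = 0.1 in an exact permutation test (two-sided), which cannot go lower with 3 against 3 libraries, or 0.125 after adjustment over the 10 ratios. The ratios of chek2 to chek1 (exact permutation p = 0.3) and of mus81 to its partner gene eme1 (exact permutation p = 0.2) overlapped between genotypes. Most of these pairs set a called gene beside an uncalled partner, in the same libraries. Their separation was thus partly fixed by that choice and gives the calls no further support.

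**Figure D4:**
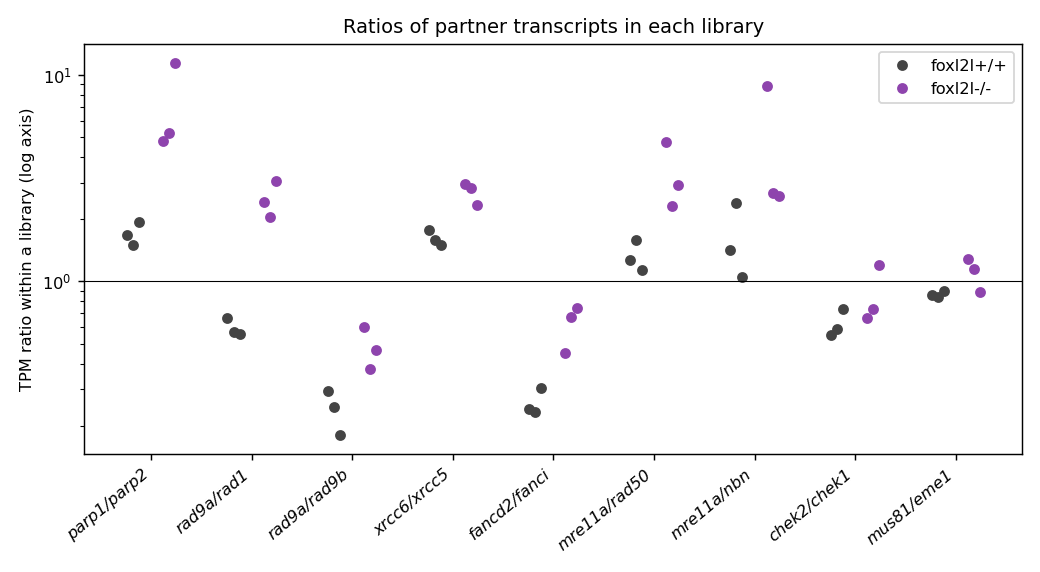
Ratio of the TPM of partner transcripts in each library (log axis), foxl2l+/+ in dark grey and foxl2l-/- in purple, with a line at equal levels. The ratio of rad9a to rad1 crosses the line between genotypes, from 0.554 to 0.665 in foxl2l+/+ to 2.04 to 3.05 in foxl2l-/- libraries. The more abundant paralog rad9b lay above rad1 in both genotypes.

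Summed by role on the TPM scale, transcripts of the 10 checkpoint genes came to 501, 449 and 570 TPM in foxl2l+/+ and 643, 629 and 810 TPM in foxl2l-/- libraries, and those of the 3 end joining genes to 203, 161 and 218 and to 295, 277 and 351 TPM, higher in foxl2l-/- without overlap. The sums of the 2 genes of similar name, 17.4 to 22.8 and 8.33 to 13.4 TPM, were lower without overlap, and those of the other 5 roles overlapped. These sums were not tested, and TPM values of all tested genes leaned upward in foxl2l-/- cells, with a median log2 fold change of 0.28 on log2(TPM + 0.1). Sums weigh the abundant genes most. In edgeR the median log2 fold change was 0.08 over the checkpoint genes, 5 positive and 5 negative, and -0.04 over the end joining genes. Of the end joining genes only xrcc6 was called, at a mean of 110 TPM in foxl2l+/+ and 212 TPM in foxl2l-/- libraries. All 52 members together came to 1975 to 2584 TPM in foxl2l+/+ and 2364 to 3156 TPM in foxl2l-/- libraries, with overlap.

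Among 79 other genes of crosslink and break repair found of a list of 90, 13 were higher and 19 lower in foxl2l-/- cells, with a median log2 fold change of 0.04. The share called was 40.5%, beside the background of 31.6%. Under library totals 18 were higher and 12 lower, and without foxl2l-/- replicate 2, 10 and 9. Without foxl2l+/+ replicate 1, 2 or 3, the higher ones numbered 7, 5 and 7, and without foxl2l+/+ replicate 3 the lower ones numbered 12. Calls over all tested genes, 3710 higher and 3733 lower with all libraries, fell in these omissions too. They numbered 2797 and 2600 without foxl2l-/- replicate 2. The higher ones numbered 2888, 2708 and 2948 without foxl2l+/+ replicate 1, 2 or 3, and the lower ones 2865 without foxl2l+/+ replicate 3. The 6 of the 79 genes with the smallest p were all lower. The gene with the next smallest p, rpa1, was higher (1.12 ± 0.18 (SE), adjusted p = 0.000733 in edgeR) and is described further below. Usp1, which encodes the protease that removes ubiquitin from FANCD2 and PCNA, stood at 317 ± 34.7 CPM in foxl2l+/+ against 125 ± 19.97 CPM in foxl2l-/- cells (SD, n = 3), a log2 fold change of -1.34 ± 0.18 (SE). Mcm8, a helicase gene of recombination repair, fell by 1.78 ± 0.22, and rtel1, a helicase gene that limits recombination and protects telomeres, by 1.58 ± 0.22. Prkdc, the gene of the end joining kinase that binds Ku, fell by 1.42 ± 0.19, from 75.3 ± 5.54 to 28.1 ± 2.44 CPM. Sfr1, the gene of an accessory protein of strand exchange, fell by 1.22 ± 0.19, and slx1b, whose product is the nuclease held by SLX4, by 1.63 ± 0.27. Eme1, which pairs with MUS81 and was picked with its values known, fell by 1.13 ± 0.19. The adjusted p of these 7 lower genes in edgeR ran from 0.000103 to 0.000945, a range that also holds the higher gene rpa1.

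Repair genes are often most abundant in dividing cells, so 15 genes of proliferation and DNA replication were set beside them. Of these, 1 was higher and 2 were lower (20% called, beside 31.6% of all tested genes), with a median log2 fold change of 0.09. Top2a was higher (0.69, adjusted p = 0.0489 in edgeR), and the ribonucleotide reductase genes rrm2_1 (-0.89, adjusted p = 0.0450, libraries overlapping) and rrm2_2 (-1.71) were lower. The genes mki67 (0.09), cdk1 (-0.09) and pcna (-0.18) did not pass. Neither did mcm7 (0.82), mcm3 (0.60), mcm5 (0.45), mcm4 (0.43), mcm6 (0.42), ccna2 (0.41), ccnb1 (-0.22), rrm1 (-0.48) and mcm2 (-0.64). Of these uncalled genes, ccna2 and rrm1 had libraries that did not overlap between genotypes. The call of top2a was lost with RLE factors and without foxl2l+/+ replicate 1, 2 or 3 or foxl2l-/- replicate 3, when no gene of this list was called higher. The genes called lower numbered 1 under library totals, on TPM values and without foxl2l+/+ replicate 1 or 3 or foxl2l-/- replicate 1 or 2, and 4 without foxl2l-/- replicate 3. Over all tested genes, calls with 1 library left out ranged from 2708 to 3302 higher and from 2600 to 3753 lower. Summed, the 15 genes came to 3138 to 3788 TPM in foxl2l+/+ and 3263 to 4919 TPM in foxl2l-/- libraries, with overlap.

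The authors' deposited table gives 7 members as higher and 9 as lower at an adjusted p below 0.05, of which 14 were called here in the same direction. It adds chek1 (log2 fold change 0.48) and rad9a (0.65) as higher, and does not pass fancf (-0.64, adjusted p = 0.106). The share of all genes called in the authors' comparison was not counted. Both sets of calls come from the same libraries, so their overlap gives the calls no further support.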

How the data were processed

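Per the labels' protocols, cDNA of about 300 sorted cells was made with SMART-Seq HT and turned into Nextera XT libraries, which do not record strand. The deposited table holds raw total counts per gene and library, and TPM values, which the authors set per transcript length and library, per the file headers. The authors' own log2 fold changes and adjusted p-values come from their deposited comparison, whose model is not stated in the labels. The submitters' processing notes list GRCz11 and bcl2fastq. Neither the aligner, nor the counter, nor how shared reads were handled is stated there. Another 12 columns of RPKM and CPM were not used.

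The count analysis used edgeR 4.0.16 (R 4.3.3). After filterByExpr, 23576 genes remained, and TMM scaling preceded glmQLFit and glmQLFTest, with Benjamini-Hochberg adjustment over all of them. CPM are edgeR's normalised counts, on the TMM-adjusted library total. The SE is the fold change divided by the root of its F statistic. On simulated data these steps recovered the size of the changes put in, but left many of them uncalled. A far smaller share of genes was changed there than the 31.6% called here, which makes the adjustment stricter. The simulated recovery therefore does not carry over to these data. A member that did not pass may still differ. Amplified reads without molecular identifiers overstate the number of molecules sampled. Libraries of a genotype differed beyond read sampling noise (chi-square per degree of freedom 33.5 to 121), so none was treated as deposited in duplicate, which does not show that they came from separate animals. Alternatives were RLE factors, library totals, DESeq2 1.42.0, limma-trend (limma 3.58.1) on log2(TPM + 1) and log2(TPM + 0.1), no low-count filter, at least 10 counts in 3 libraries, a replicate block, and the omission of each library in turn.

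The members and lists were chosen with earlier results of these data known. Each called member is given in full, with the most abundant uncalled members, brca2, and up to 6 other pathway genes with the smallest p. Other genes with values were chosen after these were seen. Older symbols were matched through the reference name table. The result for 1 tested member is not reported here, though it stays in the counts over all members.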

Additional observations from a re-analysis of the deposited data

How the results depend on the processing

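The balance of directions differed between settings. Repair genes called higher numbered 10 under library totals and 10 on log2(TPM + 1) and log2(TPM + 0.1), other pathway genes called lower numbered 12, 11 and 11, and proliferation genes 3 higher and 1 lower under each of these settings. With RLE factors, 0 proliferation genes were called higher. Over all genes, library totals gave 4882 higher and 2723 lower, and log2(TPM + 1) gave 5326 and 2652. With 1 library left out, repair genes called higher ranged from 5 to 6 and lower from 8 to 14, other pathway genes from 5 to 10 and from 9 to 21, and proliferation genes from 0 to 3 and from 1 to 4. Over all tested genes, the calls then ranged from 2708 to 3302 higher and from 2600 to 3753 lower.

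Of 36 tested members not called, 14 were called under some alternative and 10 changed sign. The same was not counted over all uncalled genes, so these numbers do not set the members apart. Under library totals the log2 fold change became positive for slx4_1 (0.19), exo1 (0.010), rad50 (0.087), nbn (0.090), rbbp8 (0.099), atm (0.14), xrcc4 (0.027) and xrcc5 (0.16). On log2(TPM + 1) these were 0.19, 0.033, 0.091, 0.016, 0.15, 0.17, 0.068 and 0.21 in the same order. On log2(TPM + 0.1), slx4_1 (0.24), exo1 (0.033), rad50 (0.093), rbbp8 (0.16), atm (0.20), xrcc4 (0.071) and xrcc5 (0.21) were positive, and without a low-count filter slx4_1 was at 0.011. With 1 library left out, values crossed 0 for slx4_1 from -0.22 to 0.12, rad51c from -0.073 to 0.23, rad50 from -0.27 to 0.11, nbn from -0.54 to 0.27, rbbp8 from -0.21 to 0.077, atm from -0.24 to 0.026, xrcc5 from -0.16 to 0.11 and parp1 from -0.24 to 0.35. The cause was not tested.

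The replicate numbers did not pair the libraries: deviations from the genotype means correlated at -0.02, 0.08 and 0.05 for replicates 1, 2 and 3, and not every foxl2l-/- library correlated best with its own number. With the replicate number as a block, 5 repair genes were higher and 11 lower, other pathway genes numbered 10 and 20, and all genes 3529 and 3670. The members with the fewest counts, rbbp8l and fancm, had the largest SEs (0.48 and 0.46).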

Other observations

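Further genes of the list of 79 are given here, chosen after their values were seen. Replication protein A, which coats single-stranded DNA, is encoded by rpa1, rpa2 and rpa3. Rpa1 rose by 1.12 ± 0.18 on the log2 scale (SE), with 549, 373 and 478 CPM in foxl2l+/+ replicates 1 to 3 and 995, 923 and 1132 CPM in foxl2l-/- replicates 1 to 3. Rpa2 fell by 0.64 ± 0.16, a call lost without foxl2l-/- replicate 2 (-0.57, adjusted p = 0.0568 in edgeR, and 0.00296 to 0.0568 over the alternatives), and rpa3 (0.19 ± 0.18) did not pass. Of the genes that clear adducts from DNA ends, tdp1 (0.93 ± 0.24) and tdp2b (1.19 ± 0.23) rose, aptx (-0.79 ± 0.28) fell, and tdp2a (1.599 ± 0.635) and pnkp (0.43 ± 0.20) did not pass. The tdp1 call was lost without foxl2l+/+ replicate 2 (0.74, adjusted p = 0.0560 in edgeR, and 0.00271 to 0.0560 over the alternatives). Lig3, the gene of a DNA ligase that binds XRCC1, fell by 0.69 ± 0.22. The calls of aptx and lig3 were each lost under 8 of 14 alternatives.

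The Fanconi core partners faap24 (-1.12 ± 0.32) and faap100, listed as si:dkey-57h18.1 (-0.71 ± 0.18), fell, as did sfr1 and its partner swi5 (-0.70 ± 0.20). The calls were lost under 2 of 14 alternatives for faap24, 3 for faap100 and 6 for swi5, and the adjusted p in edgeR or limma-trend reached 0.0725, 0.0969 and 0.0838. Without foxl2l-/- replicate 2 all of these 3 calls were lost, that of faap24 also without foxl2l+/+ replicate 1, and that of swi5 without foxl2l+/+ replicate 2 or 3. Of the translesion polymerase genes, rev1 (1.38 ± 0.49), rev3l (0.75 ± 0.21) and polh (0.97 ± 0.33) were called higher, and mad2l2 (0.03 ± 0.18), which encodes a partner of the rev3l product, did not pass. Rev1 had 5.65, 8.44 and 5.73 CPM in foxl2l+/+ against 10.52, 7.39 and 33.9 CPM in foxl2l-/- replicates 1 to 3, which overlapped. Its call was lost under 7 of 14 alternatives, namely without foxl2l-/- replicate 3 (0.44), without foxl2l+/+ replicate 1, 2 or 3, with the replicate block and on both TPM settings (adjusted p up to 0.377). Polh had 26.9, 25.9 and 39.3 CPM in foxl2l+/+ against 37.3, 44.7 and 99.0 CPM in foxl2l-/- replicates 1 to 3, which also overlapped. Its call was lost without foxl2l-/- replicate 3 (0.42) or foxl2l+/+ replicate 1 or 2 (adjusted p up to 0.211). The rev3l call was lost without foxl2l+/+ replicate 1 or 3 (adjusted p up to 0.0626).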
